A study of Mus musculus with 18 samples.

Results

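The 10 genes that encode the subunits of the COP9 signalosome (CSN), Gps1 (CSN1), Cops2, Cops3, Cops4, Cops5, Cops6, Cops7a, Cops7b, Cops8 and Cops9, were read out of the 55487 genes counted in each library. They were chosen by name, with both genes for CSN7. RNA was sequenced from the subcutaneous white fat (sWAT) of male mice aged 12 weeks, 4 Ctrl and 4 Csn8AKO, and from the brown fat (BAT) of male mice aged 4 weeks, 5 Ctrl and 5 Csn8AKO, with 1 mouse per library. Ctrl mice, labelled WT, were Csn8 f/f littermates without Cre, and Csn8AKO mice, labelled Csn8A KO, carried Csn8 f/f together with Cre under the adiponectin promoter, so that both genotypes shared the floxed allele. All mice ate chow and were fasted for 4 h. Csn8 is listed as Cops8 in the files. The Cre deletes its exons 4 to 6 in adipocytes alone, and the other cells of the fat pad keep the gene. In whole tissue, fewer cells of a type and less RNA per cell cannot be told apart.

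The CSN is a complex that takes the ubiquitin-like protein NEDD8 off cullins, the scaffolds of cullin-RING ubiquitin ligases, and so lets these ligases exchange their substrate receptors. CSN5 is the metalloprotease that cuts NEDD8 and is paired with CSN6, which has the same MPN fold without the active site. CSN1, CSN2, CSN3, CSN4, CSN7 and CSN8 carry PCI domains and build the scaffold around this pair, CSN7A and CSN7B being alternative subunits for the same place. CSN9 is a short acidic protein that joins the complex. The lid of the 26S proteasome is built on the same plan, and eIF3 shares the PCI and MPN folds.

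Cops8 (ENSMUSG00000034432) lies on the plus strand of chromosome 1 (GRCm38). Its principal transcript has 8 exons and 2287 bases. Exons 4, 5 and 6 hold 304 of its 630 coding bases, 48.3%, and 304 is not a multiple of 3, so that joining exon 3 to exon 7 shifts the reading frame. The sequences of the targeted exons are given because the deposited counts cannot separate them from the rest of the gene. Capitals mark the exons removed by Cre, and the lower case letters are the 15 bases of exon 3 before them and the 15 bases of exon 7 after them, taken from the GENCODE M21 transcript.
Exon 4, chr1:90606537-90606669: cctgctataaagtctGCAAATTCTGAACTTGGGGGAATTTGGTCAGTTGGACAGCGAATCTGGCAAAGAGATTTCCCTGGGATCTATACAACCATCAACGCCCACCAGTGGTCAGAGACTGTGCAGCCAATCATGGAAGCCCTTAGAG
Exon 5, chr1:90610093-90610200: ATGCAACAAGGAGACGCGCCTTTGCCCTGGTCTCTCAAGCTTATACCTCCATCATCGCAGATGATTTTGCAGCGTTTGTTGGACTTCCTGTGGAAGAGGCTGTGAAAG
Exon 6, chr1:90610975-90611037: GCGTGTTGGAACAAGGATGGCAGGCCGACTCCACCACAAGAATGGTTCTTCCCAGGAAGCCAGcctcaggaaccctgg
The files count Cops8 over 4448 bases of merged exons, of which these exons are 6.83%. Of the shorter principal transcript they are 13.3%. A Cops8 count therefore includes reads from exons that the deletion leaves in place, and it does not measure the loss of exons 4 to 6.

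Between 15835721 and 23109603 reads per library were counted in sWAT and between 26658593 and 66719937 in BAT. Between 1.80% and 47.8% of the sWAT reads and between 0.863% and 15.1% of the BAT reads fell on ribosomal RNA genes. The smallest count of any subunit was 131, for Cops7b in 1 sWAT library, and all 10 genes passed the filter on low counts in every comparison. The adipocyte marker Adipoq was at 455 to 1546 CPM (reads of the gene per 1e+06 counted) over the 18 libraries, and Ucp1, the uncoupling protein that marks brown adipocytes, was at 1637 to 5408 CPM in BAT and 0 to 6.81 in sWAT. Skeletal muscle markers summed to 44.6 to 2882 CPM over the sWAT libraries, and lymphocyte markers to 285 CPM in sWAT Ctrl mouse 1 and 512 CPM in sWAT Csn8AKO mouse 2 against at most 30.4 in the other 6.

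To learn in what proportion the subunits were transcribed, levels were compared per length, as CPM per kilobase of merged exons after scaling by TMM over all 18 libraries. In BAT Ctrl mice the order from high to low was Cops7a, Cops6, Cops9, Gps1, Cops2, Cops3, Cops5, Cops8, Cops4 and Cops7b, with 36.4 ± 1.7 (SD, n = 5) for Cops7a, 9.18 ± 0.73 for Cops8 and 2.41 ± 0.28 for Cops7b. The ranges over the 5 libraries overlapped between Cops6 and Cops9, Gps1 and Cops2, Cops3 and Cops5, and Cops5 and Cops8, so these neighbours were not separated by their spread. Cops7a made up 23.7% ± 1.0 of the summed level of the 10 genes and Cops8 5.98% ± 0.39.

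In sWAT Ctrl mice the same 5 genes led in the same order, but only Cops2 and Cops5, and Cops4 and Cops7b, were neighbours whose ranges did not overlap. The level per kilobase was 19.6 ± 2.0 (SD, n = 4) for Cops7a, 7.62 ± 0.36 for Cops8 and 1.66 ± 0.04 for Cops7b. Cops7a made up 17.2% ± 0.3 of the summed level here and Cops8 6.69% ± 0.40. The highest and lowest subunits differed 11.8-fold in sWAT Ctrl and 15.1-fold in BAT Ctrl, and 3.22-fold and 5.48-fold when Cops7b was left out.

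The order rested on the length used. The merged exons of the files are longer than the principal transcript for every subunit, for example 5006 against 1755 bases for Cops4 and 1499 against 438 bases for Cops9. With the length of the principal transcript, an alternative chosen after the data were seen, Cops9 was highest in all 4 groups, with 25.3% ± 1.8 of the summed level in BAT Ctrl, and Cops7a came next there with 18.3% ± 0.9. Cops8 moved from place 8 to place 9 of the 10 in that group, at 6.01% ± 0.44. Cops7b remained lowest under either length, at 0.831% ± 0.098 of the sum with the principal transcript.

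**Figure D1:**
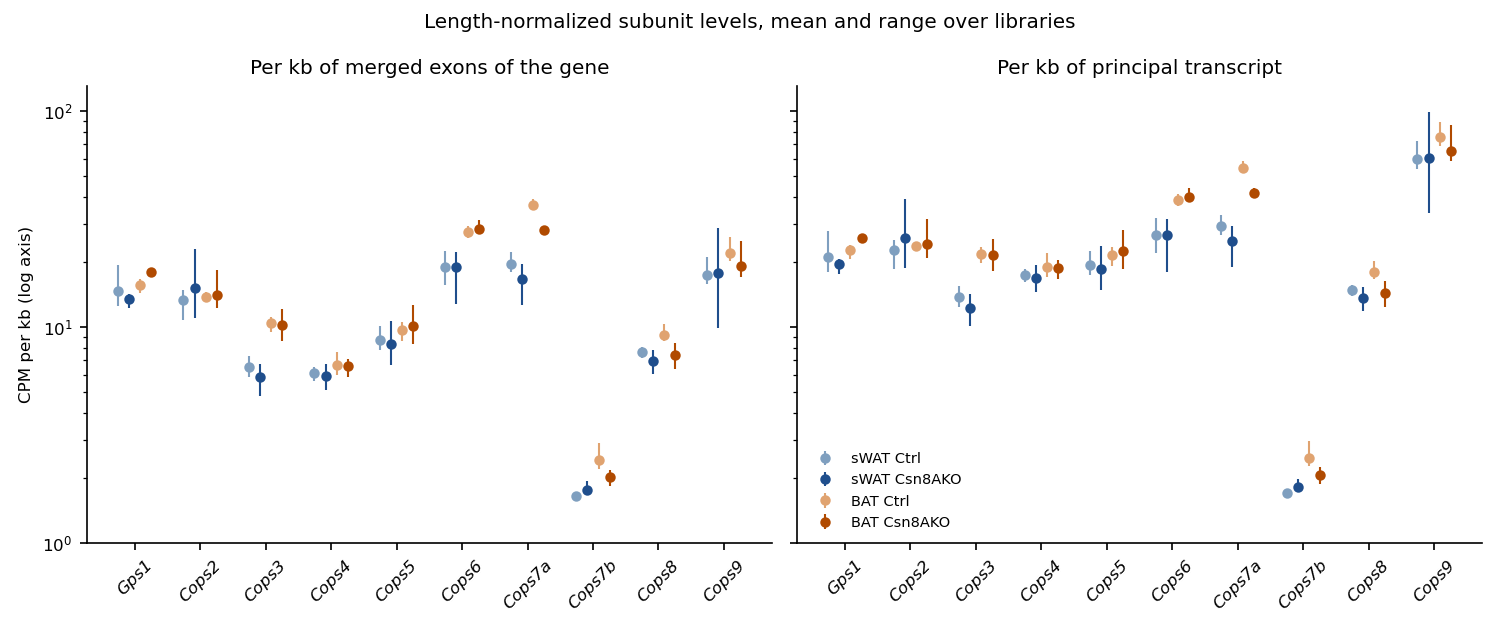
Level of each subunit gene in CPM per kilobase on a log axis, per kilobase of merged exons (left) and of the principal transcript (right). Points are group means and bars run from the lowest to the highest library. Cops7b was lowest in all 4 groups under both lengths, and the place of Cops9 depended on the length used.

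The CSN7 paralogs were read as the ratio of Cops7a to Cops7b within each library, which no library scaling can alter. In the 4 sWAT Ctrl libraries the length-normalized level of Cops7a was 10.5, 13.1, 11.2 and 12.5 times that of Cops7b, and in the 4 sWAT Csn8AKO libraries 9.77, 6.54, 11.6 and 10.2 times. The genotypes overlapped, and the lowest ratio belonged to Csn8AKO mouse 2. The log2 ratio was 0.34 lower in Csn8AKO mice (two-sided exact permutation test, p = 0.114, and 0.229 adjusted over the 2 tissues, with 0.0286 the smallest p for 4 against 4 mice). Leaving out a library moved this difference between -0.44 and -0.17, the latter without Csn8AKO mouse 2 (p = 0.229 by the same exact test), the library with the highest sum of lymphocyte markers. In BAT the ratios were 12.0, 15.6, 15.9, 15.3 and 17.7 in Ctrl mice and 12.3, 14.0, 15.7, 13.0 and 14.5 in Csn8AKO mice. They overlapped too, and the log2 ratio was 0.13 lower in Csn8AKO mice (two-sided exact permutation test, p = 0.254, adjusted p = 0.254, with 0.00794 the smallest p for 5 against 5 mice). Without BAT Ctrl mouse 1, the lowest of its group, the BAT difference was -0.22 with an unadjusted p of 0.0476 by the same exact test.

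**Figure D2:**
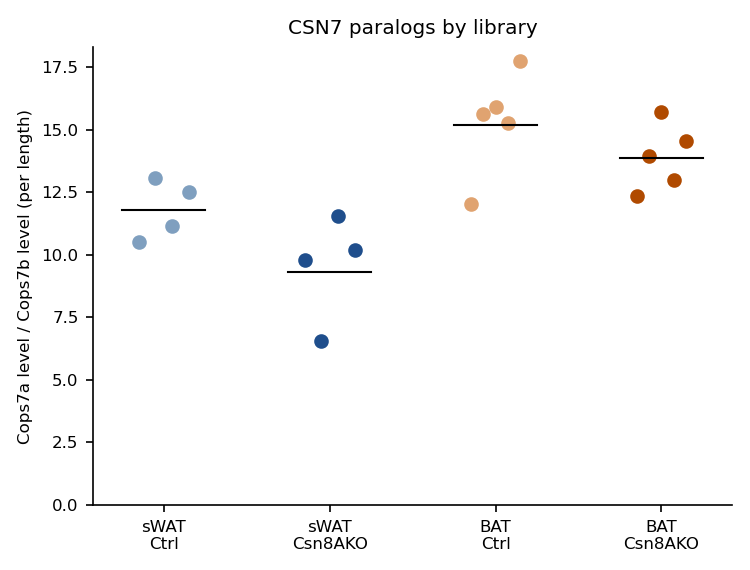
Ratio of the length-normalized level of Cops7a to that of Cops7b in each library (points), with the group's geometric mean (line). Ratios ran from 6.54 to 17.7 over the 18 libraries, and the genotypes overlapped in both tissues.

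The first comparison asked whether deleting Csn8 in adipocytes altered the transcripts of the complex in sWAT. No subunit passed the test in sWAT. The count was 0 of 10 with edgeR's quasi-likelihood test at an adjusted p under 0.05, 0 of 10 at an unadjusted p under 0.05, and 0 of 10 with DESeq2. Of the 18843 genes tested edgeR called 5.31%, and 20.4% had an unadjusted p under 0.05. In no subunit were the genotypes free of overlap, which 14% of all genes were. The median log2 fold change was -0.05 over the subunits and 0.03 over all genes tested.

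Cops8, the targeted gene, measured 33.9, 36.2, 34.8 and 35.0 CPM in the sWAT of Ctrl mice and 33.0, 29.2, 30.7 and 36.0 CPM in that of Csn8AKO mice, with TMM factors computed within the tissue. Csn8AKO mouse 4 was within the Ctrl range and the other 3 were below it. The log2 fold change of Cops8 was -0.12 ± 0.11 (SE, adjusted p = 0.623), a change of -7.91% with a 95% interval from -22.7% to 9.74%. Relative to the geometric mean of the other subunits, which is free of library scaling, Cops8 stood at -0.40 to -0.27 on the log2 scale in Ctrl and -0.63 to -0.20 in Csn8AKO libraries. The log2 fold change of Cops8 was -0.07 without Csn8AKO mouse 2, -0.19 without Csn8AKO mouse 4 and -0.22 with scaling by library size alone, and none of these passed the test (adjusted p = 0.765, 0.441 and 0.999).

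Among the other scaffold subunits, Cops7a measured 51.6, 60.7, 50.8 and 56.3 CPM in sWAT Ctrl mice and 46.3, 37.0, 54.6 and 49.3 CPM in sWAT Csn8AKO mice. The groups overlapped through Csn8AKO mouse 3, and the log2 fold change was -0.23 ± 0.14 (adjusted p = 0.410), and -0.13 without Csn8AKO mouse 2. Gps1, Cops3 and Cops4 had log2 fold changes of -0.10, -0.15 and -0.04, and Cops7b of 0.10. Cops2, whose protein clamps the cullin and its RING partner, ran from 40.8 to 53.5 CPM in Ctrl mice and from 41.9 to 82.6 CPM in Csn8AKO mice. The highest value was that of Csn8AKO mouse 1, and without this library the log2 fold change of Cops2 turned from 0.19 to -0.07.

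The catalytic pair was close to level between the genotypes of sWAT. Cops5 had a log2 fold change of -0.06 with a 95% interval from -0.39 to 0.28, and Cops6 of 0.01 with an interval from -0.38 to 0.40. Cops9 spread most, with 24.7 to 32.4 CPM in Ctrl mice and 15.9, 23.7, 26.03 and 43.8 CPM in Csn8AKO mice. The lowest of these was Csn8AKO mouse 2 and the highest Csn8AKO mouse 1. The log2 fold change of Cops9 was 0.03 ± 0.27, and -0.30 without Csn8AKO mouse 1.

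Macrophage markers rose in the same sWAT comparison, with 6 of 10 called and their sum at 737 to 1098 CPM in Ctrl and 1086 to 2050 CPM in Csn8AKO libraries. Of the adipocyte markers 4 of 10 fell, and their sum was 21317 to 28801 CPM in Ctrl and 6988 to 17585 CPM in Csn8AKO libraries. Fibroblast markers rose in 1 of 8 genes and summed to 11167 to 13263 CPM in Ctrl and 11791 to 20657 CPM in Csn8AKO libraries. Of the 6 brown adipocyte markers tested 2 fell, and the list summed to 68.5 to 146 CPM and 11.2 to 27.3 CPM. No lymphocyte, endothelial or skeletal muscle marker was called. The levels of Adgre1, a macrophage surface receptor, were 30.6 to 39.2 CPM in Ctrl and 65.6 to 96.1 CPM in Csn8AKO libraries. The part of these cells in the subunit values was not tested.

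**Figure D3:**
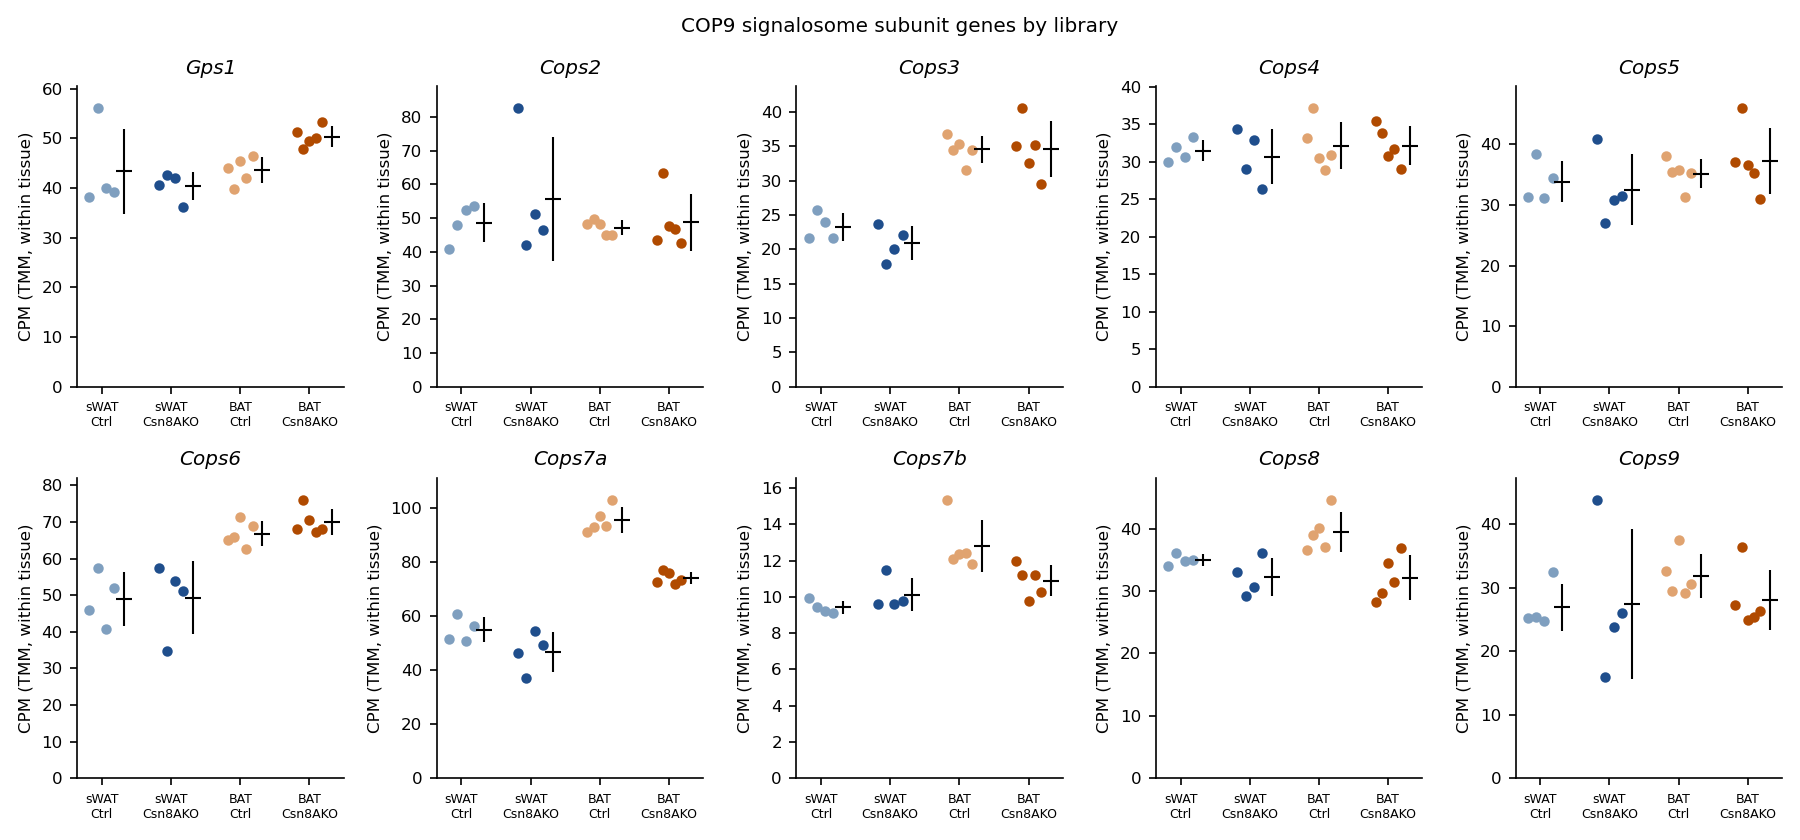
CPM of each subunit gene in each library with TMM factors computed within the tissue (points), with the group mean and SD (black). In BAT the Ctrl and Csn8AKO points of Cops7a and of Gps1 did not overlap, and in sWAT all 10 genes overlapped between the genotypes.

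In BAT, 3 of 10 subunits passed the test, where edgeR called 31.9% of the 22345 genes tested. Cops7a and the targeted gene Cops8 fell, as did 15.8% of all genes, and Gps1 rose, as did 16% of all genes. The share of subunits called was thus near that of all genes. The Ctrl and Csn8AKO values did not overlap for 2 of the 10, Cops7a and Gps1, against 21% of all genes. The median log2 fold change was 0.00 over the subunits and 0.01 over all genes.

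Cops7a was the CSN7 paralog with the higher transcript level. It measured 90.9, 93.0, 97.0, 93.3 and 102.9 CPM in BAT Ctrl mice and 72.6, 77.0, 75.8, 71.6 and 73.4 CPM in BAT Csn8AKO mice. Every Csn8AKO library lay below every Ctrl library. Cops7a fell by 0.37 ± 0.07 on the log2 scale (edgeR, adjusted p = 0.000748), a change of -22.4% with a 95% interval from -29.6% to -14.5%. Relative to the geometric mean of the other subunits it stood at 3.12 to 3.65 times that mean in Ctrl and 2.53 to 2.85 times in Csn8AKO libraries, again without overlap. The call held without each of the 10 libraries in turn, with an adjusted p of 0.000495 to 0.00423, and was lost with scaling by library size alone (-0.24, adjusted p = 0.0895). That scaling moved the median of expressed genes from -0.01 to 0.12.

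Cops8 measured 36.5, 39.0, 40.1, 37.1 and 44.6 CPM in BAT Ctrl mice and 28.2, 29.7, 34.5, 31.4 and 36.9 CPM in BAT Csn8AKO mice. Csn8AKO mouse 5 was above Ctrl mouse 1 and the other 4 Csn8AKO mice were below all Ctrl mice. With TMM factors over all 18 libraries the same groups ran from 38.1 to 46.0 and from 28.4 to 37.4 CPM and did not overlap. Relative to the geometric mean of the other subunits they did overlap, with log2 values of -0.61 to -0.27 in Ctrl and -0.98 to -0.39 in Csn8AKO libraries. Cops8 fell by 0.30 ± 0.09 on the log2 scale (edgeR, adjusted p = 0.0211), a change of -18.6% with a 95% interval from -28.7% to -6.98%. The call was lost without Ctrl mouse 5 (adjusted p = 0.0525), without Csn8AKO mouse 1 (0.0570) or mouse 4 (0.0579), and with scaling by library size alone (-0.16, adjusted p = 0.388). The targeted exons hold 6.83% of the merged exon bases counted and 13.3% of the principal transcript. Their part in the fall of Cops8 was not tested.

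Gps1, encoding CSN1, a scaffold subunit that touches both CSN2 and CSN3, measured 44.1, 39.9, 45.4, 42.1 and 46.5 CPM in BAT Ctrl mice and 51.2, 47.8, 49.4, 50.2 and 53.3 CPM in BAT Csn8AKO mice. Every Csn8AKO library lay above every Ctrl library. Relative to the geometric mean of the other subunits the genotypes overlapped, at 1.21 to 1.41 times that mean in Ctrl and 1.39 to 1.86 times in Csn8AKO libraries. Gps1 rose by 0.21 ± 0.07 on the log2 scale (edgeR, adjusted p = 0.0321), with a 95% interval from 0.06 to 0.36. Leaving out a library ended this call in 5 of 10 fits, with adjusted p up to 0.0939, those without Ctrl mouse 1, 2 or 4 or without Csn8AKO mouse 4 or 5. The call was also lost without the filter on low counts and with all 18 libraries in one fit. Scaling by library size alone kept the call and gave 0.35 (adjusted p = 0.0315).

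The promoters of Cops7a and Gps1, which moved in opposite directions in BAT, are shown with the search for 10 known motifs. The 250 bases before a start of each gene in RefSeq (GRCm38.p6) are printed on the strand of the gene. Another start is listed for each gene, and its window, not printed, holds GGGCGG too. The capitals mark GGGCGG, the box bound by SP1, on either strand.
Cops7a, chr6:124965513-124965762, minus strand: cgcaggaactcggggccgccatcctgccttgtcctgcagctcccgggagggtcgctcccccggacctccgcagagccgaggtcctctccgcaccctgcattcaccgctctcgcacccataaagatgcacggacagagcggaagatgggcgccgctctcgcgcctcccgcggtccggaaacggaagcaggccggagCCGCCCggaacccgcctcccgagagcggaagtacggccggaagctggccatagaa
Gps1, chr11:120784020-120784269, plus strand: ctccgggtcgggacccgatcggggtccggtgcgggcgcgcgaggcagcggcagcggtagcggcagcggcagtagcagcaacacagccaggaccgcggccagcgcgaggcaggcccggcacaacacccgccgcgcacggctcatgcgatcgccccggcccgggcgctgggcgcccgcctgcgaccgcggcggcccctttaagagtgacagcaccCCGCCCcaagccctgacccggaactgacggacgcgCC
Both are rich in G and C, at 69.6% and 76.8%. The box at the end of the Gps1 stretch runs on past the start. GGGCGG was found in 7 of the 12 promoter windows listed for 9 of the subunits (250 bases before to 50 after the start), and in 35.7% of all 32851 windows. The 7 windows belong to Cops4, Cops6, Cops7a, Cops8 and Gps1. Gps1, Cops7a and Cops9 have overlapping windows, in which a site can be counted again, and Cops5 had no window. CACGTG, an E-box, was found in a window of Cops7a that starts further into the gene and in the window of Cops8, and in 7.15% of all windows. CCGGAAGT, bound by ETS factors, was found in windows of Cops3 and Cops9, and in 3.89% of all windows. The DR1 element bound by PPARG was found in 0 of the 12 subunit windows, as were the 10-base core of the NRF1 motif, the YY1 motif AAGATGGCG, the cAMP element TGACGTCA and the ERR motif TCAAGGTCA. In that order, these motifs were found in 0.04%, 0.97%, 1.40%, 1.79% and 0.42% of all windows. At such shares an absence from 12 windows is not particular to the subunits. CCAAT was found in windows of Cops4 and Cops9 and TGACNNNGC, the antioxidant element, in the same window of Cops7a as the E-box, against 37.4% and 12.4% of all windows.

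Cops7b was the CSN7 paralog with the lower transcript level. It measured 15.4, 12.1, 12.4, 12.4 and 11.8 CPM in BAT Ctrl mice and 12.0, 11.2, 9.79, 11.2 and 10.3 CPM in BAT Csn8AKO mice. The groups overlapped through Ctrl mouse 5, and Ctrl mouse 1 stood above the others. Its log2 fold change was -0.23 ± 0.10 with an unadjusted p of 0.0427 in edgeR's quasi-likelihood fit and an adjusted p of 0.106.

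The other 6 subunits did not pass the test in BAT. Cops2, Cops3 and Cops4 had log2 fold changes of 0.05, 0.00 and 0.00, with 95% intervals from -0.17 to 0.26, -0.19 to 0.19 and -0.18 to 0.19. Cops5 and Cops6 had 0.08 and 0.07, with intervals from -0.13 to 0.29 and from -0.08 to 0.21. Relative to the geometric mean of the other subunits, Cops6 stood at 2.33 to 2.58 times that mean in Ctrl and 2.69 to 2.85 times in Csn8AKO libraries, without overlap. That mean holds Cops7a and Cops8, called lower, and Gps1, called higher, so the ratio also moves with them. The CPM of Cops6 overlapped, at 62.7 to 71.3 in Ctrl and 67.3 to 76.0 in Csn8AKO mice. Cops9 ran from 29.2 to 37.5 CPM in Ctrl mice and, Csn8AKO mouse 2 at 36.4 CPM apart, from 24.9 to 27.3 CPM in Csn8AKO mice. Its log2 fold change was -0.19 (adjusted p = 0.230), and -0.30 without that mouse (adjusted p = 0.0168).

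Csn8AKO mouse 2 was the highest BAT library for Cops2, Cops3, Cops5 and Cops6 as well, at 63.3, 40.5, 45.9 and 76.0 CPM. Ribosomal RNA genes held 15.1% of its reads, the most of any BAT library. The part of this in the subunit values was not tested.

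In the BAT comparison macrophage markers rose in 8 of 10 genes and fibroblast markers in 8 of 8, and 4 of 8 endothelial markers rose. The macrophage markers summed to 87.6 to 120 CPM in Ctrl and 259 to 323 CPM in Csn8AKO libraries, and the fibroblast markers to 1337 to 2287 CPM and 3437 to 5899 CPM. Adipocyte markers summed to 14281 to 17026 CPM in Ctrl and 13289 to 16094 CPM in Csn8AKO libraries, with 2 of 10 called lower. Skeletal muscle markers summed to 2.12 to 2.88 CPM in Ctrl libraries and to 124 and 218 CPM in Csn8AKO mice 1 and 5, against at most 3.28 in the other 3. The part of these cells in the subunit values was not tested.

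**Figure D4:**
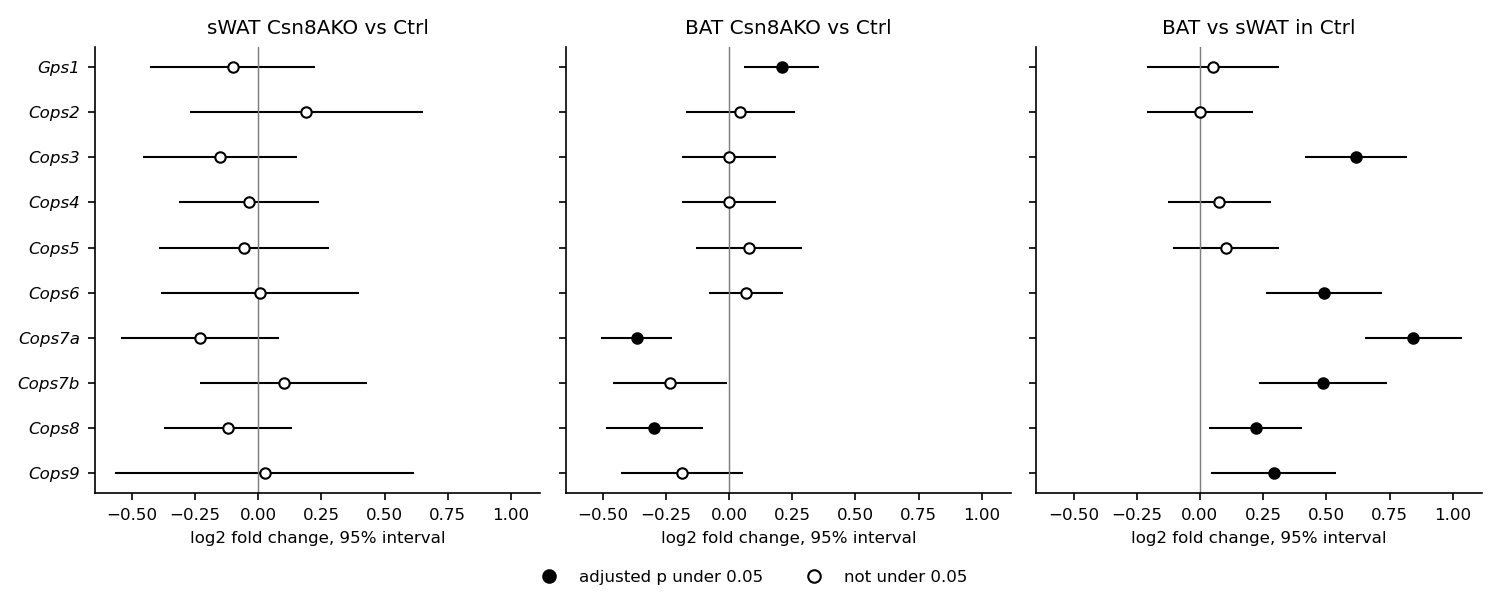
Log2 fold change of each subunit gene with its 95% interval between genotypes in sWAT and in BAT, and between the tissues of Ctrl mice; filled points have an adjusted p under 0.05. In sWAT 0 of 10, in BAT 3 of 10 and between tissues 6 of 10 subunits passed.

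Whether the response to the deletion differed between the tissues was tested by an interaction term in a fit of all 18 libraries. BAT came from mice aged 4 weeks and sWAT from mice aged 12 weeks, so this term cannot tell tissue from age. No subunit passed, 0 of 10 with edgeR's quasi-likelihood test and 0 of 10 with DESeq2, where edgeR called 2.36% of 22509 genes, and 1 of 10 had an unadjusted p under 0.05, as did 15.3% of genes. That gene was Cops7b, whose log2 fold change in BAT was 0.35 lower than in sWAT on this fit (interaction -0.35 ± 0.16, adjusted p = 0.299). For Cops7a the interaction was -0.15 with a 95% interval from -0.46 to 0.17, and for Cops8 -0.19 with an interval from -0.49 to 0.11. With library size alone they turned to 0.11 for Cops7a and 0.057 for Cops8. For Gps1 it was 0.30 with an interval from -0.02 to 0.62. The fall of Cops7a and Cops8 in BAT was therefore not shown to differ from their values in sWAT. The intervals of the others were -0.66 to 0.34 for Cops2, -0.20 to 0.47 for Cops3, -0.28 to 0.33 for Cops4, -0.27 to 0.51 for Cops5, -0.35 to 0.44 for Cops6 and -0.85 to 0.39 for Cops9.

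The Ctrl mice were then compared between tissues, BAT at 4 weeks against sWAT at 12 weeks, so that tissue and age cannot be told apart. Of the subunits 6 of 10 were higher in BAT and 0 lower, where edgeR called 52.7% of 22381 genes, 25.7% higher and 27% lower. Ctrl values did not overlap for 5 of 10, against 46.6% of genes. The median log2 difference was 0.26 over the subunits and 0.01 over all genes. Scaling by library size alone moved the median of expressed genes from 0.03 to -0.17, left Cops7a and Cops3 called, and turned Gps1, Cops2, Cops4 and Cops5 to -0.11, -0.18, -0.11 and -0.08.

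With TMM factors over all 18 libraries, Cops7a measured 48.4, 60.0, 49.2 and 55.0 CPM in sWAT and 94.9, 96.3, 100.4, 96.4 and 106 CPM in BAT. The log2 difference was 0.84 ± 0.09 (edgeR, adjusted p = 3.84e-06), with a 95% interval of 57.3% to 105% higher in BAT. Cops3, a scaffold subunit, measured 20.3, 25.4, 23.2 and 21.1 CPM in sWAT and 38.4, 35.7, 36.5, 32.6 and 35.6 CPM in BAT. Its log2 difference was 0.62 ± 0.09 (edgeR, adjusted p = 9.91e-05).

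Every BAT library lay above every sWAT library for both genes. The exons of Cops3 share 279 bases with Gm16062 and 87 with Nt5m on the opposite strand. Whether the counting used the strand is not stated, so reads there may belong to either gene.

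Cops6, the partner of the catalytic subunit, was 0.49 ± 0.11 higher in BAT on the log2 scale (adjusted p = 0.00173), at 64.7 to 73.8 CPM against 39.3 to 56.8. Its exons share 64 bases with Mcm7 on the opposite strand. Cops7b was 0.49 ± 0.12 higher (adjusted p = 0.00338), at 12.2 to 16.0 CPM against 8.93 to 9.35. Neither range overlapped between the tissues.

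Cops8 was 0.22 ± 0.09 higher in BAT (adjusted p = 0.0454), at 38.1 to 46.0 CPM against 31.9 to 35.7, and Cops9 was 0.29 ± 0.11 higher (adjusted p = 0.0468), at 30.1 to 38.8 CPM against 23.6 to 31.6. Both calls were near the threshold, and both were lost when ribosomal RNA genes were left out (adjusted p = 0.0565 for Cops8 and 0.0555 for Cops9), which left 4 of 10 subunits called. Cops8 was no longer called in 6 of 9 fits without a library, with adjusted p up to 0.111, and Cops9 in 7 of 9, with adjusted p up to 0.119. Gps1, Cops2, Cops4 and Cops5, with Cops5 as the catalytic subunit, had log2 differences of 0.05, 0.00, 0.08 and 0.10. For Gps1 the fits without a library ran from 0.00 to 0.22, and 1 of the 9 called it higher (edgeR, adjusted p = 0.0438). The exons of Cops5 share 182 bases with Cspp1 and those of Cops2 31 bases with Galk2, both on the opposite strand. Brown adipocyte markers were higher in BAT in 8 of 8 genes, and macrophage, fibroblast and skeletal muscle markers lower in 10 of 10, 8 of 8 and 8 of 8.

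The genes that work with the CSN on cullins were read from the same fits. In sWAT 0 of 8 cullins, 0 of 13 neddylation genes, 0 of 7 exchange and adaptor genes, 0 of 9 genes of the proteasome lid and 0 of 8 PCI and MPN genes of eIF3 passed edgeR's quasi-likelihood test, and 0, 2, 0, 1 and 0 of them had an unadjusted p under 0.05. These counts stand beside 5.31% of all genes called and 20.4% at an unadjusted p under 0.05. The median log2 fold changes of these lists in sWAT were -0.13, 0.00, 0.02, -0.14 and 0.15, against 0.03 over all genes.

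In BAT 1 of 8 cullins fell, Cul4b, the scaffold of the DDB1 ligases, at -0.38 ± 0.10 on the log2 scale (adjusted p = 0.00788). Of the neddylation genes 2 of 13 rose and 3 fell. Ube2f, a NEDD8-conjugating enzyme, rose by 0.41 and Dcun1d3, a NEDD8 ligase cofactor, by 0.37. Senp8, the protease that matures NEDD8, fell by 0.79 on the log2 scale (SE 0.13, adjusted p = 0.000361), Dcun1d1 fell by 0.24 and Uba3, the catalytic subunit of the NEDD8-activating enzyme, fell by 0.19. The calls for Senp8 and Ube2f held in all 10 fits that leave out a library and in all 8 other settings. That for Cul4b was lost with library size alone (adjusted p = 0.0527). Those for Dcun1d3, Dcun1d1 and Uba3 were lost in 7, 5 and 8 of the 10 fits and in 3, 3 and 5 of the 8 settings, with adjusted p up to 0.223, 0.532 and 0.661. The median log2 fold change of the 13 genes was -0.11, and of the cullins -0.03.

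Of the 7 exchange and adaptor genes in BAT, Cand1, the exchange factor that competes with substrate receptors for the cullin, rose by 0.21, and the adaptors Skp1a and Eloc fell by 0.38 and 0.32 on the log2 scale. The paralogous complexes gave 2 of 9 and 2 of 8 higher and 0 lower. In the proteasome lid these were Psmd6 (0.28) and Psmd13 (0.23), counterparts of Gps1 and of the CSN7 genes, and in eIF3 Eif3c (0.39) and Eif3a (0.26). Of these 7 calls Eif3c alone held in every fit without a library and every other setting. Skp1a was lost with library size alone (adjusted p = 0.0529), Eloc in 2 of 10 fits and 2 of 8 settings, Cand1 in 5 and 3, Psmd6 in 4 and 2, Psmd13 in 6 and 4, and Eif3a in 8 and 2, with adjusted p up to 0.150, 0.145, 0.102, 0.245 and 0.0972. The counterpart of Cops8 in the lid, Psmd8, had a log2 fold change of -0.02 in BAT and 0.06 in sWAT. The shares called, 1 of 8, 5 of 13, 3 of 7, 2 of 9 and 2 of 8, stand beside 31.9% of all genes.

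Between the Ctrl tissues 4 of 8 cullins, 8 of 13 neddylation genes, 3 of 7 exchange and adaptor genes and 4 of 9 lid genes were higher in BAT, against 25.7% of all genes. Ube2m, the main NEDD8-conjugating enzyme of cullins, had the smallest adjusted p among them, with a log2 difference of 1.09 ± 0.11 (edgeR, adjusted p = 2.23e-06). Cand2 was lower, by 1.20 on the log2 scale. The alternatives were read only for the up to 3 called genes of smallest adjusted p per list and direction. Among these, Cul2, Cul4a, Cul4b, Elob and Psmd11 were no longer called higher with library size alone, with adjusted p from 0.0820 to 0.399. In eIF3 1 of 8 was higher, Eif3l, and 3 were lower, Eif3e, Eif3a and Eif3h. The call for Eif3h was lost in 5 of 9 fits without a library, with adjusted p up to 0.121, and without the filter on low counts (0.340).

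**Figure D5:**
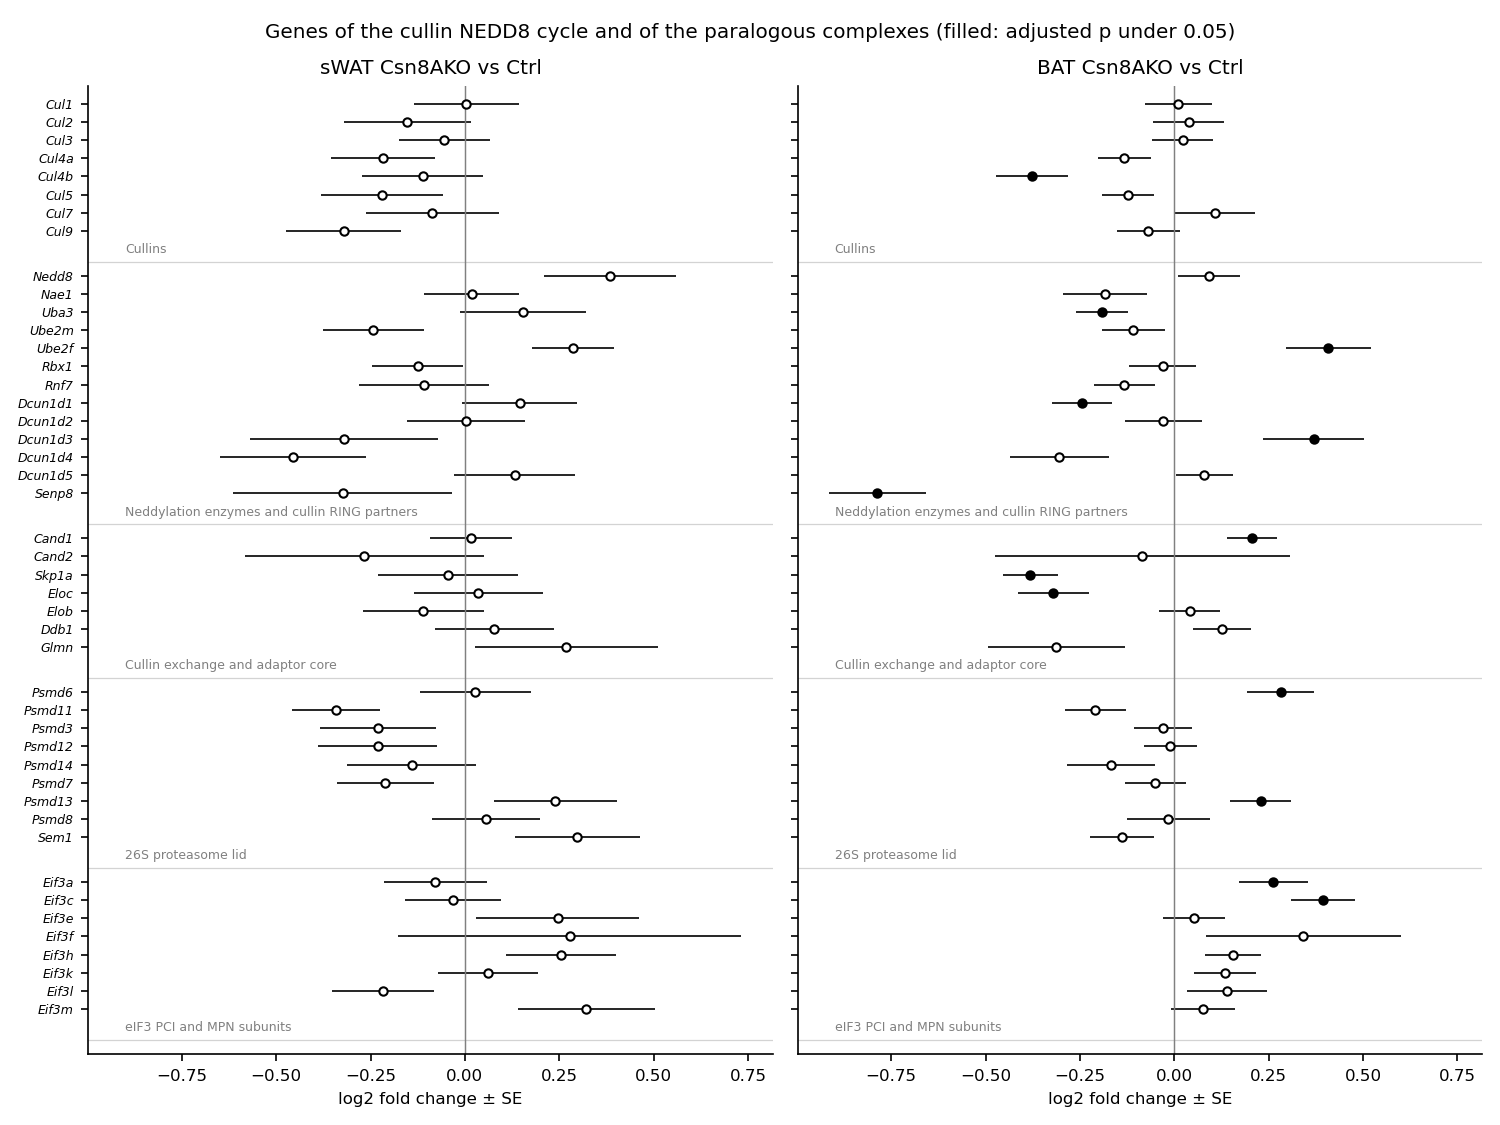
Log2 fold change with SE of the cullins, neddylation genes, exchange and adaptor genes, proteasome lid and eIF3 genes in sWAT (left) and BAT (right); filled points have an adjusted p under 0.05. No gene passed in sWAT, and in BAT Senp8 lay farthest from 0, at -0.79.

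The genes whose pattern over the 18 libraries was most like that of Cops8 were sought among 12106 protein-coding genes, as the root mean square difference in log2 CPM after centring each gene. The 3 nearest genes outside the complex were Tcf25, Eri3 and Tgfbrap1, at 0.09, 0.10 and 0.11. The subunits nearest to Cops8 were Cops4 at 0.22, in place 971, and Cops7b at 0.22, in place 1099. Cops7a was farthest at 0.35, in place 4489, and the median of all genes was 0.43. The measure favours genes that vary little, and the libraries share tissue, genotype and depth.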

How the data were processed

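RNA-seq was analysed from 18 libraries of male mice, 4 Ctrl and 4 Csn8AKO for sWAT and 5 Ctrl and 5 Csn8AKO for BAT. The authors depleted ribosomal RNA by an RNase H method, made cDNA with random hexamers, aligned paired reads with STAR 2.7.9a to the genome of an Ensembl release (GRCm38) and counted uniquely aligned reads on genes with featureCounts. The strand setting is not given in the sources used here. The deposited count of each gene was not normalized. The deposited CPM, FPKM and TPM were recomputed from the counts, differed by less than 1e-09, and were not used further. The Length column deposited by the authors gives the merged exon length.

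From the counts, genotypes were compared within each tissue, and tissues within Ctrl, with edgeR 4.0.16 in R 4.3.3 (TMM factors, filterByExpr set to counts of at least 10 and totals of at least 15, quasi-likelihood fit with the robust option, Benjamini-Hochberg adjustment over all genes tested). A gene was called at an adjusted p under 0.05, with no minimum fold. The interaction of genotype and tissue used all 18 libraries. The ratio of Cops7a to Cops7b used a prior of 0.5 counts and a two-sided exact permutation test with scipy 1.17.1. Fits were tested on simulated data. Symbols, exons and transcripts came from GENCODE M21, in which 55141 of the 55487 genes had a symbol, and promoters from RefSeq.

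The subunits and gene lists were chosen with earlier results of these data known. All 10 subunits are named in each comparison, and from each pathway list up to 3 called genes of smallest adjusted p per direction. The 3 genes most like Cops8 were taken among protein-coding genes with an average log2 CPM of at least 1. Alternatives were RLE factors, library size alone, no filter, DESeq2 1.42.0, protein-coding genes only, no ribosomal RNA genes, all 18 libraries in one fit, a replicate block and each library left out. The length of the principal transcript was added after the data were seen. Each library was 1 mouse, and no 2 libraries of a group differed by as little as sampling noise.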

Additional observations from a re-analysis of the deposited data

Results flagged for a closer look

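Of the 40 groups of a subunit gene and a condition, 6 held a library whose gap to the nearest other exceeded Dixon's limit as a share of the group's range, where about 1 in 20 groups does so by chance. Gps1 stood high in sWAT Ctrl mouse 2 at 56.1 CPM, with a gap of 0.908 of the range. Cops9 stood high in sWAT Ctrl mouse 4 at 32.4 CPM, with a gap of 0.919. Cops7b stood high in sWAT Csn8AKO mouse 2 at 11.5 CPM, with a gap of 0.888, and in BAT Ctrl mouse 1 at 15.4 CPM, with a gap of 0.819. In BAT Csn8AKO mouse 2, Cops2 stood high at 63.3 CPM, with a gap of 0.755, and Cops9 at 36.4 CPM, with a gap of 0.794. Without BAT Csn8AKO mouse 2 the log2 fold change of Cops2 in BAT was -0.07 in place of 0.05.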

How the results depend on the processing

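The count of subunits called in sWAT and in the interaction stayed at 0 under every alternative run. In BAT it was 1 with library size alone and 1 to 4 without a library, and between Ctrl tissues 2 with library size alone and 4 without ribosomal RNA genes, where Cops8 and Cops9 were no longer called. Cops8 in BAT was -0.16 with library size alone and -0.34 to -0.24 without a library. Cops8 in sWAT was -0.22 with library size alone and -0.19 to -0.073 without a library. The log2 ratio of Cops7a to Cops7b differed by -0.22 to -0.077 in BAT and -0.44 to -0.17 in sWAT without a library, and adding no count in place of 0.5 changed no call.

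Over all genes in sWAT, 434 were called with library size alone, 1822 with DESeq2, 2463 with all 18 libraries in one fit and 326 to 1477 without a library, against 1000. The interaction gave 1103 with DESeq2 against 532. Library size alone moved the share of calls that were higher from 43.4% to 24.4% in sWAT, from 50.3% to 66.7% in BAT, from 68% to 92.7% in the interaction and from 48.8% to 36% between tissues.

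Deviations of same-numbered samples had correlations of -0.45 to 0.29 in sWAT and -0.17 to 0.20 in BAT. For BAT numbers 1 and 5 they were 0.17 and 0.20, above the highest with another number, 0.0048 and 0.15. For all other numbers in both tissues they were below it. A pairing of mice by number was thus not shown, and these correlations cannot exclude it. With the replicate block 299 genes were called in sWAT, 6776 in BAT and 297 in the interaction. The block turned Cops6 and Cops9 in sWAT to -0.0035 and -0.062 and Cops3 in BAT to -0.0048, and kept the 3 subunits called in BAT.

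Some uncalled values changed sign, among them the interactions of -0.16, -0.15 and -0.19 for Cops2, Cops7a and Cops8. Library size alone gave -0.10 for Cops6 and -0.060 for Cops9 in sWAT, 0.0048, 0.11 and 0.057 for Cops2, Cops7a and Cops8 in the interaction, and -0.11, -0.18, -0.11 and -0.083 for Gps1, Cops2, Cops4 and Cops5 between tissues. No filter gave -0.016 for Cops6 in sWAT and for Cops3 and Cops4 in BAT. For Cops3 and Cops4 in BAT, DESeq2 gave -0.0023 and -0.0018, protein-coding genes only -0.017 for each, and all 18 libraries -0.020 and -0.021. Between tissues Cops2 was -0.016 without ribosomal RNA genes. The cause was not tested.

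Without a library, the sWAT ranges were -0.16 to 0.037 for Gps1, -0.066 to 0.31 for Cops2, -0.098 to 0.017 for Cops4, -0.19 to 0.026 for Cops5, -0.082 to 0.14 for Cops6 and -0.30 to 0.22 for Cops9. In BAT they were -0.067 to 0.096 for Cops2, -0.063 to 0.059 for Cops3, -0.030 to 0.056 for Cops4 and -0.0084 to 0.14 for Cops5. In the interaction they were -0.29 to 0.12 for Cops2, -0.038 to 0.11 for Cops4, -0.10 to 0.15 for Cops6 and -0.43 to 0.12 for Cops9, and between tissues -0.070 to 0.062 for Cops2.

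The standard errors of the subunits were 0.11 to 0.27 in sWAT and 0.07 to 0.11 in BAT, so that a fall in sWAT of the size of that of Cops8 in BAT was inside the 95% interval. The sWAT libraries were counted less deeply than those of BAT, and the groups held 4 mice against 5. The source of the wider errors was not tested.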
